A study of Homo sapiens with 21 samples.

Results

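Mitosis and spindle checkpoint genes are 43 genes whose products drive entry into mitosis, build the spindle and the kinetochore, hold the chromosomes until all are attached, and divide the cell. They were listed by name and function, with earlier results of these data known. All 43 were found among the 61541 genes of the gene count table and among the 57300 gene names of the exon bin files, where they hold 1522 of 685251 bins. Expression was measured by RNA sequencing in 21 libraries of K562, a cell line established from a patient with chronic myeloid leukaemia. All 7 groups were K562 cultures, with 3 libraries each. In the first pair of experiments, cells overexpressing the 34kn or the 34kp enhancer RNA, a pair of transcripts from an enhancer upstream of the transcription factor gene MYB, were set against a control of their own. In the third experiment, cells labelled MYB overexpression and cells labelled NMYB overexpression were set against empty vector. The design text speaks of MYB and of a form that lacks part of its N terminus, while the label NMYB is left unexplained. Neither the vectors, nor the promoters that drive them, nor whether the lines are clones is given in the sources used here.

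Entry into mitosis is driven by the kinase CDK1 with cyclin B, which CDC25 phosphatases switch on. The spindle checkpoint then keeps CDC20 from activating the anaphase promoting complex until every kinetochore has bound microtubules. Only then are securin and cyclin B destroyed, and separase opens the cohesin rings that hold sister chromatids together. Most of these genes are transcribed late in the cell cycle under a shared control: the MuvB complex, joined by B-MYB and FOXM1 in cycling cells and by E2F4 and RBL1 or RBL2 in the repressive DREAM complex, binds a short promoter element called CHR (TTTGAA), often with CCAAT boxes bound by NF-Y nearby. B-MYB is a relative of MYB and recognises a like core sequence. K562 cells divide continuously in culture, so these genes are at work in every group.

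The promoters of 5 members show these letters, and are given because BUB1, TOP2A and MKI67 were among the members that differed from empty vector, and CDC25C and HMMR differed between the enhancer RNA experiments. Each stretch is the 150 bases before a RefSeq transcription start (GRCh38.p14), written 5′ to 3′ on the gene's strand. Capitals mark TTTGAA or its reverse complement TTCAAA and CCAAT or its reverse complement ATTGG, and neighbouring marks can join or overlap. The stretches lie at chr2:110678064-110678213, minus strand, for BUB1, at chr5:138331805-138331954, minus strand, for CDC25C, at chr17:40417897-40418046, minus strand, for TOP2A, at chr10:128126424-128126573, minus strand, for MKI67, and at chr5:163460482-163460631, plus strand, for HMMR. For CDC25C, RefSeq lists 4 starts, and the one shown was picked because its stretch holds the CHR letters.
BUB1: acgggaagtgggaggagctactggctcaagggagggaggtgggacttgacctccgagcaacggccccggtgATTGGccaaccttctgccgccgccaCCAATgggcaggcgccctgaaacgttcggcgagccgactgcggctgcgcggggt
CDC25C: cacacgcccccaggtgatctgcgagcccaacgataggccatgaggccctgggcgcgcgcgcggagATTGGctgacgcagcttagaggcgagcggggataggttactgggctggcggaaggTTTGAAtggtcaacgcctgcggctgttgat
TOP2A: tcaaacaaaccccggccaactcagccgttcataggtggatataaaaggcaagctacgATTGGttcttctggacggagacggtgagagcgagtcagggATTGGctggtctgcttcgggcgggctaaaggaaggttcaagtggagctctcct
MKI67: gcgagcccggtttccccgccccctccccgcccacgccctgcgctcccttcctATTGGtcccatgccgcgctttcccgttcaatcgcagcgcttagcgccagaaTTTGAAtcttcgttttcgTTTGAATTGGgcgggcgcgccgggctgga
HMMR: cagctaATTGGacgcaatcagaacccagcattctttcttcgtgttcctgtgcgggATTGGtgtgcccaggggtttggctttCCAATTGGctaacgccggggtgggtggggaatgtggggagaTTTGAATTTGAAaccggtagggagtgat
The CHR letters occur in the stretches of CDC25C, MKI67 and HMMR, and CCAAT letters in all 5. In the longer windows counted next, TOP2A holds the CHR letters as well, and BUB1 does not. RefSeq promoter windows of 300 bases (250 before the start and 50 after it) were matched for 36 of the 43 members, and TTTGAA on either strand was found in a window of 27 of them (75.0%). Among the 27305 genes of that table the share was 18.2%, and among its 15842 protein-coding genes 15.9%. CCAAT on either strand was found in 30 of the 36 (83.3%), against 39.7% of all genes. The MYB core AACNG was found in 33 of the 36 (91.7%), against 80.5% of all genes. A gene with several listed starts has several windows and so more chances of a match. Counted by window, TTTGAA was held by 65.2% of the 46 windows of members and by 15.2% of all 35116 windows. These are matches of letters only.

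Summed gene counts per library lay between 16552237 and 24462819, and summed bin counts between 36563252 and 41243796. One read can add to more than 1 bin, so a gene's sum over bins is not a number of reads, and levels are not compared between the kinds of file. Levels are given as CPM, counts scaled to a library total that TMM adjusts (a factor per library that offsets differences in composition). MYB itself was at 227 ± 4.5 CPM in the MYB libraries and 211 ± 8.4 CPM in the NMYB libraries, against 215 ± 4.4 CPM with empty vector (SD, n = 3). The difference from empty vector had an adjusted p of 0.230 for MYB and 0.727 for NMYB, so the level of the gene does not bear out the labels, and the groups are called by their labels. All 10 erythroid markers of K562 were detected in each group of the MYB experiment. In the bin files HBG1, HBG2 and HBE1 share a joined unit and cannot be told apart. That unit and the other markers were detected in every group. They summed to 1902 to 1951 CPM in MYB and 1969 to 1982 CPM in NMYB, against 2176 to 2208 CPM with empty vector. For the enhancer RNA experiments no sum is given, since the shared globin unit would count more than once. That unit had a mean of 9310 CPM in 34kn, against 10286 CPM in its control. In 34kp its mean was 6769 CPM, against 6281 CPM in its control. Of 21 markers of T cells, B cells, monocytes, fibroblasts and epithelium, those with a mean above 1 CPM included CD3D, LYZ, COL1A1, COL1A2 and EPCAM, and MS4A1, LUM and KRT5 were at 0 in every library. The T cell list summed to 12.1 to 14.7 CPM in MYB and 15.2 to 17.0 CPM in NMYB, against 30.9 to 32.1 CPM with empty vector, nearly all of it CD3D. The monocyte list, nearly all LYZ, summed to 31.9 to 37.1 CPM in MYB and 36.0 to 39.4 CPM in NMYB, against 23.7 to 28.5 CPM with empty vector. The epithelial list, nearly all EPCAM, summed to 83.2 to 88.6 CPM in 34kn, against 67.3 to 78.5 CPM in its control. The fibroblast list summed to 8.77 to 9.31 CPM in MYB and 9.19 to 9.92 CPM in NMYB, against 10.8 to 11.2 CPM with empty vector. In summed bins it was at 24.6 to 30.9 CPM in 34kn, against 27.3 to 36.3 CPM in its control. For 34kp it was at 33.9 to 41.7 CPM, against 39.9 to 40.6 CPM in its control. The part of these markers in the results was not tested.

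The level of a member is compared with that of another only per kilobase of exon, in the gene table. In empty-vector cells, TPX2, which activates the kinase AURKA on the spindle, had the highest level, at 113 ± 2.7 CPM per kb (SD, n = 3). It was followed by CCNB1, cyclin B1, at 102 ± 1.1, TOP2A, the topoisomerase that untangles sister chromatids, at 94.7 ± 3.9, CDC20, the activator of the anaphase promoting complex, at 90.8 ± 7.4, and CCNA2, cyclin A2, at 85.9 ± 3.4 CPM per kb. The levels of TOP2A, CDC20 and CCNA2 lay within the spread of their neighbours in this order. Near the low end were ECT2, which turns on RhoA for cytokinesis, at 10.8 ± 0.33, and CDC25C, a phosphatase of CDK1, at 7.20 ± 0.59 CPM per kb. UBE2C, a ubiquitin-conjugating enzyme of the anaphase promoting complex, was lowest with PRC1, which bundles the midzone microtubules, and NUSAP1, a spindle microtubule binder. Their levels were 0.506 ± 0.058, 0.458 ± 0.10 and 0.451 ± 0.11 CPM per kb, which do not differ beyond their spread.

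These lowest levels rest on few counts. PRC1 had 33 to 78 counts per library in the gene table, while the exon bin unit that joins it with VPS33B and a further overlapping gene had 10753 to 13066. NUSAP1 had 19 to 31 counts, while the unit that joins it with the antisense gene OIP5-AS1 and a further gene had 11868 to 17965. UBE2C had 10 to 21 counts in the gene table and 5 to 32 in the bins. Values of PRC1, NUSAP1 and UBE2C in the gene table are therefore uncertain, and in the bin files PRC1, NUSAP1, BUB1B (joined with PAK6 and a readthrough gene) and CENPA (joined with SLC35F6) stand for units that hold other genes as well. In the gene table PAK6 had 9 to 22 counts beside 2145 to 3606 of BUB1B, but SLC35F6 had 947 to 1401 beside 367 to 536 of CENPA. All 43 members passed the filter on low counts in every gene-level comparison.

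In cells labelled MYB overexpression, 9 of the 43 mitosis genes fell and none rose. The largest fall was that of the checkpoint kinase gene BUB1, to 0.780 of its empty-vector level, and the others were CDC25C, TOP2A, CENPE, KIF2C, AURKA, KIF20A, BUB1B and ESPL1. CDK1, CCNB1, PLK1 and FOXM1 were among the 34 that did not pass the test. The test was edgeR's quasi-likelihood F test, two-sided, with an adjusted p (Benjamini-Hochberg, over all genes tested) below 0.05 as the threshold, and log2 fold changes are given with their standard error (SE). Among all 15823 genes tested, 22.3% passed in either direction, 9.62% higher and 12.7% lower. The share of members called in either direction, 20.9%, is near that of all genes, and all 9 lie on the lower side. The median log2 fold change was -0.067 over the members and 0.0055 over all genes, with 30 members below 0 and 13 above. In 13 members all 3 MYB libraries lay below all 3 empty-vector libraries, which 20.7% of all genes did, and in 3 members all lay above, against 19.8% of all genes. RNA was taken from whole cultures, so fewer cells in mitosis and less RNA per mitotic cell cannot be told apart.

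Among CDK1, its cyclins and its phosphatases, 1 of 6 fell. CDC25C was at 18.3, 20.1 and 18.6 CPM in the MYB libraries, against 24.6, 21.8 and 25.7 CPM with empty vector (log2 fold change -0.34, SE 0.080, adjusted p = 0.00440). Every MYB library was below every empty-vector library. CDK1 was at 232, 229 and 252 CPM, against 262, 231 and 236 CPM with empty vector (log2 fold change -0.034, SE 0.062, adjusted p = 0.746), and CCNB1 was at 265, 249 and 264 CPM, against 265, 262 and 259 CPM with empty vector (log2 fold change -0.015, SE 0.041, adjusted p = 0.839). For both genes the groups overlapped.

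Of the partners and targets of the anaphase promoting complex, 1 of 4 fell: ESPL1, which encodes separase, was at 108, 104 and 99.0 CPM in MYB, against 116, 119 and 115 CPM with empty vector (log2 fold change -0.17, SE 0.053, adjusted p = 0.0259). CDC20 was at 197, 203 and 192 CPM in MYB, against 168, 197 and 189.7 CPM with empty vector (log2 fold change 0.095, SE 0.054, adjusted p = 0.235), with groups that overlap. Of the mitotic kinases and FOXM1, 1 of 3 fell. AURKA, the kinase of centrosomes and spindle poles, was at 137, 135 and 143 CPM in MYB, against 160.3, 158 and 158 CPM with empty vector (log2 fold change -0.20, SE 0.050, adjusted p = 0.00712). The MYB and empty-vector values of AURKA did not overlap. PLK1, a kinase with roles from mitotic entry to cytokinesis, was at 215, 209 and 199 CPM, against 187, 224 and 207 CPM with empty vector (log2 fold change 0.012, SE 0.059, adjusted p = 0.914), and FOXM1, the transcription factor of late cell cycle genes, was at 60.5, 62.9 and 55.7 CPM, against 55.7, 59.2 and 60.7 CPM with empty vector (log2 fold change 0.030, SE 0.069, adjusted p = 0.798). Both overlapped between the groups.

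Of the 5 spindle checkpoint genes, 2 fell. BUB1, the kinase that marks centromeres and recruits checkpoint proteins to kinetochores, was at 196, 189.5 and 206 CPM in MYB, against 262, 249 and 247 CPM with empty vector (log2 fold change -0.36, SE 0.050, adjusted p = 3.83e-05). BUB1B, which encodes the checkpoint protein BUBR1, was at 147, 138 and 137 CPM in MYB, against 164, 152 and 157 CPM with empty vector (log2 fold change -0.17, SE 0.049, adjusted p = 0.0193). Both genes had every MYB library below every empty-vector library, by a wider gap for BUB1. Of the 4 genes of the chromosomal passenger complex, AURKB, INCENP, BIRC5 and CDCA8, none passed the test (2 had an unadjusted p below 0.05), and their log2 fold changes ran from -0.18 to 0.098. In the centromere and kinetochore group, 1 of 6 fell: CENPE, the kinesin that moves chromosomes to the spindle equator, was at 91.4, 84.0 and 92.5 CPM in MYB, against 109.6, 105 and 104 CPM with empty vector (log2 fold change -0.25, SE 0.068, adjusted p = 0.0140).

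Of the 5 kinesins, 2 fell. KIF2C, which takes microtubules apart at their ends and corrects wrong attachments, was at 259, 256 and 254 CPM in MYB, against 299, 286 and 302 CPM with empty vector (log2 fold change -0.21, SE 0.042, adjusted p = 0.00136). KIF20A, a kinesin of the central spindle, was at 81.0, 76.6 and 78.3 CPM in MYB, against 91.7, 88.3 and 90.1 CPM with empty vector (log2 fold change -0.20, SE 0.049, adjusted p = 0.00732). Neither kinesin overlapped between the groups. None of the 6 spindle and microtubule-binding genes and neither of the cytokinesis genes ANLN and ECT2 passed. Of the mitotic chromosome genes, TOP2A was at 504, 483 and 539 CPM in MYB, against 635, 585 and 608 CPM with empty vector (log2 fold change -0.26, SE 0.055, adjusted p = 0.00231), again with no overlap. MKI67, the proliferation antigen Ki-67 that coats mitotic chromosomes, was at 379, 372 and 352 CPM in MYB, against 398, 369 and 399.8 CPM with empty vector (log2 fold change -0.081, SE 0.046, adjusted p = 0.231), and the groups overlapped. Among the 34 members that did not pass, log2 fold changes ran from -0.18 to 0.28 and the smallest adjusted p was 0.0509. Summed over all members, the level was 5983, 5871 and 6054 CPM in MYB, against 6422, 6200 and 6356 CPM with empty vector.

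BUB1, KIF2C, TOP2A and CDC25C passed without any one of the 6 libraries of the MYB and empty-vector groups. Without empty-vector replicate 1, and likewise without MYB replicate 2, 4 members remained called. AURKA, CENPE, KIF20A, BUB1B and ESPL1 were lost in both cases. Their log2 fold changes were -0.17, -0.20, -0.16, -0.12 and -0.16 without empty-vector replicate 1, and -0.16, -0.19, -0.16, -0.13 and -0.15 without MYB replicate 2. BUB1B was also lost without empty-vector replicate 3 (-0.16) or MYB replicate 3 (-0.15), and ESPL1 without empty-vector replicate 2 (-0.15) or 3 (-0.17) or MYB replicate 3 (-0.14). With the trend of each library with GC content removed, 17 members were called, 2 higher and 15 lower, and the share called over all genes was then 31.9%.

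**Figure D1:**
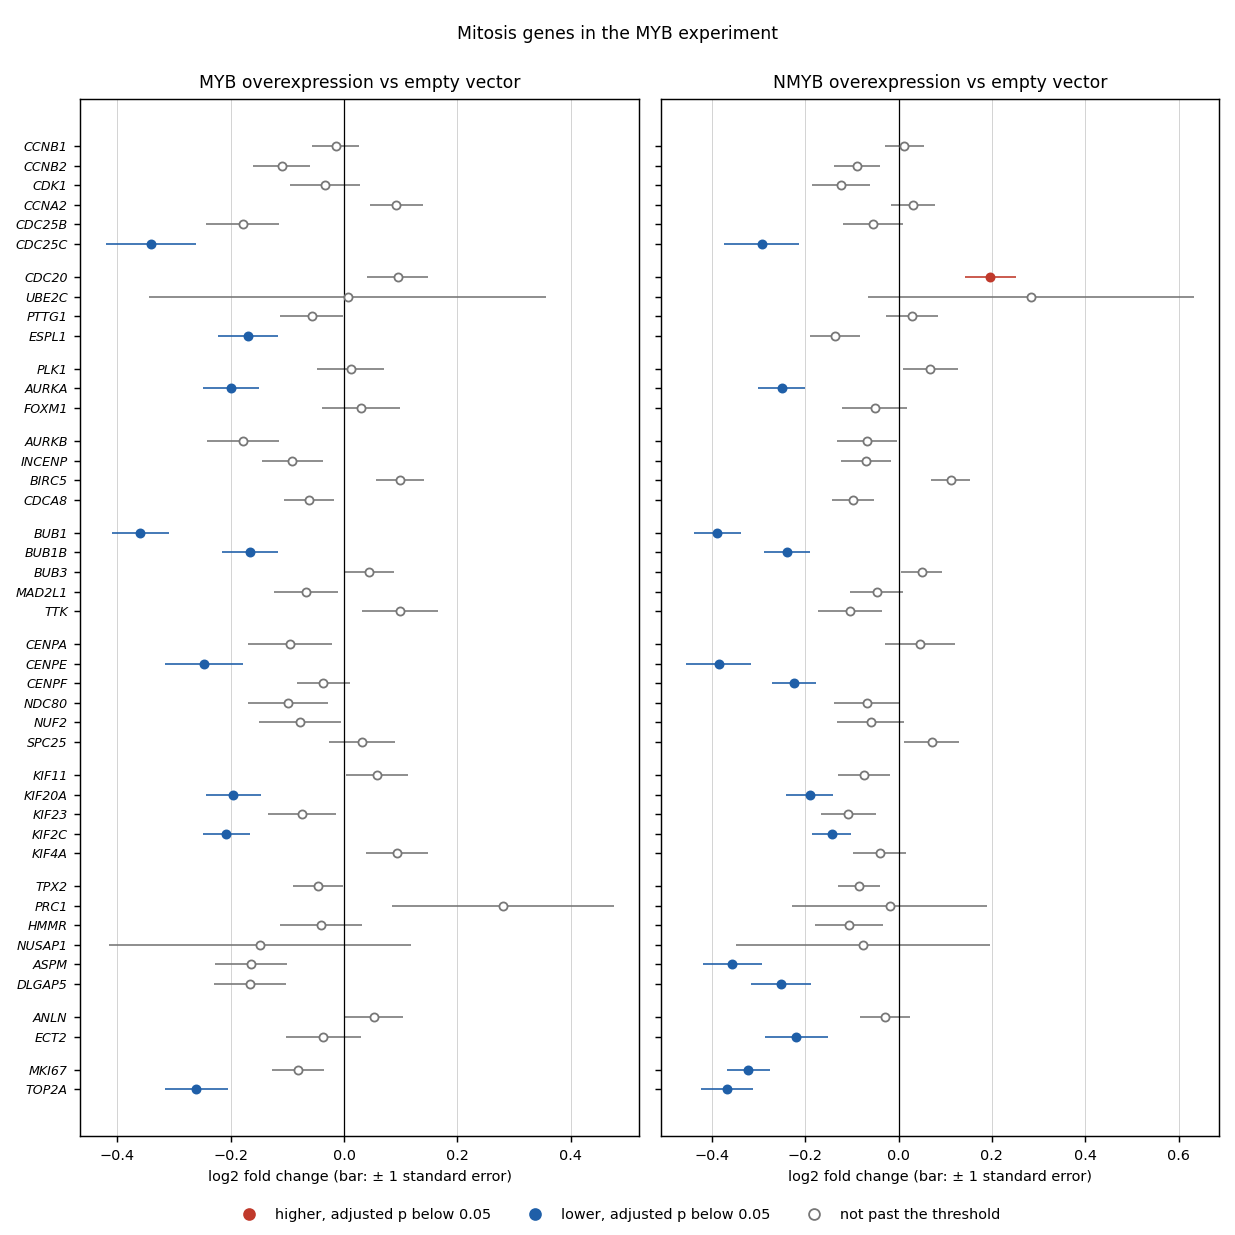
Log2 fold change (x axis, ± 1 standard error) of each of the 43 mitosis genes (y axis, grouped by role) for MYB against empty vector (left) and NMYB against empty vector (right). Filled blue points were lower and the filled red point, CDC20, higher with an adjusted p below 0.05, and open points did not pass; 9 genes are blue on the left and 13 on the right, and the widest bars are those of UBE2C, PRC1 and NUSAP1, which have few counts.

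In cells labelled NMYB overexpression, 13 of the 43 mitosis genes fell and 1, CDC20, rose. The falls took in BUB1 and CENPE, the mitotic chromosome genes TOP2A and MKI67, and the spindle pole gene ASPM. Among all genes tested, 24.9% passed in either direction, 12.6% higher and 12.4% lower, while the 13 members that fell are 30.2% of the 43. The median log2 fold change was -0.076 over the members and 0.0076 over all genes, with 33 members below 0 and 10 above. In 15 members all NMYB libraries lay below all empty-vector libraries, against 19.5% of all genes, and in 2 all lay above, against 19.4% of all genes. The empty-vector libraries are the same ones as in the comparison with MYB, so the 2 comparisons are not independent of each other.

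Falls were called in the checkpoint, kinetochore and chromosome groups. BUB1 was at 197, 179 and 203 CPM in NMYB, against 262, 249 and 247 CPM with empty vector (log2 fold change -0.39, SE 0.051, adjusted p = 1.92e-05). BUB1B was at 133, 129.8 and 138 CPM, against 164, 152 and 157 CPM (log2 fold change -0.24, SE 0.049, adjusted p = 0.00146). No NMYB library of either gene reached an empty-vector library. In the centromere and kinetochore group, 2 of 6 fell: CENPE was at 86.7, 69.9 and 86.5 CPM in NMYB, against 109.6, 105 and 104 CPM with empty vector (log2 fold change -0.39, SE 0.069, adjusted p = 4.93e-04), and CENPF, a large kinetochore protein of late G2 and mitosis, was at 244, 224 and 253 CPM, against 285, 275 and 283 CPM (log2 fold change -0.22, SE 0.047, adjusted p = 0.00182). Both mitotic chromosome genes fell. TOP2A was at 496, 428 and 493 CPM in NMYB, against 635, 585 and 608 CPM with empty vector (log2 fold change -0.37, SE 0.055, adjusted p = 1.11e-04). MKI67 was at 319.9, 296 and 317 CPM, against 398, 369 and 399.8 CPM (log2 fold change -0.32, SE 0.046, adjusted p = 5.57e-05). In each of these 4 genes the groups lay apart, and NMYB replicate 2 was the lowest library.

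Of the 6 spindle and microtubule-binding genes, 2 fell. ASPM, which holds microtubule minus ends at the spindle poles, was at 150.3, 134 and 157 CPM in NMYB, against 196, 177 and 192 CPM with empty vector (log2 fold change -0.36, SE 0.064, adjusted p = 4.93e-04). DLGAP5, also called HURP, which stabilises microtubules near chromosomes, was at 78.6, 68.3 and 75.8 CPM, against 93.7, 83.7 and 87.7 CPM (log2 fold change -0.25, SE 0.065, adjusted p = 0.00783). In both genes NMYB replicate 2 was again lowest and the groups did not overlap. Of the 5 kinesins, 2 fell. KIF20A was at 80.7, 79.5 and 76.5 CPM in NMYB, against 91.7, 88.3 and 90.1 CPM with empty vector (log2 fold change -0.19, SE 0.049, adjusted p = 0.00810), and KIF2C had a log2 fold change of -0.14 with an adjusted p of 0.0174. Of the cytokinesis genes, ECT2 fell, with a log2 fold change of -0.22 and an adjusted p of 0.0228, and ANLN did not pass.

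AURKA was at 141, 125 and 135 CPM in NMYB, against 160.3, 158 and 158 CPM with empty vector (log2 fold change -0.25, SE 0.050, adjusted p = 0.00117). CDC25C was at 20.8, 18.1 and 19.9 CPM, against 24.6, 21.8 and 25.7 CPM (log2 fold change -0.29, SE 0.081, adjusted p = 0.0121). In both, the groups lay apart. CDC20, whose product starts anaphase, rose: it was at 213, 219.9 and 203 CPM in NMYB, against 168, 197 and 189.7 CPM with empty vector (log2 fold change 0.20, SE 0.055, adjusted p = 0.0130), and empty-vector replicate 1 was the lowest of these libraries. In the chromosomal passenger complex none of 4 passed, 2 of them with an unadjusted p below 0.05. CDK1 (log2 fold change -0.12, SE 0.062, adjusted p = 0.164), CCNB1 (log2 fold change 0.013, SE 0.041, adjusted p = 0.861), PLK1 (log2 fold change 0.068, SE 0.059, adjusted p = 0.442), FOXM1 (log2 fold change -0.051, SE 0.070, adjusted p = 0.646) and ESPL1 (log2 fold change -0.14, SE 0.053, adjusted p = 0.0683) did not pass either. Among the 29 members that did not pass, log2 fold changes ran from -0.14 to 0.28, with a smallest adjusted p of 0.0627. The level summed over all members was 5917, 5542 and 5873 CPM in NMYB, against 6422, 6200 and 6356 CPM with empty vector.

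Without empty-vector replicate 1, 10 members were called, and CDC20, DLGAP5, KIF2C and ECT2 were lost, with log2 fold changes of 0.13, -0.21, -0.13 and -0.21. Without empty-vector replicate 3, CDC25C (-0.25), KIF2C (-0.13) and ECT2 (-0.21) did not pass, and without NMYB replicate 2 the same held for ECT2 (-0.14). The other calls passed without any one library.

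Set directly against MYB, NMYB differed in 1 member. MKI67 was at 319.9, 296 and 317 CPM in NMYB, against 379, 372 and 352 CPM in MYB (log2 fold change -0.24, SE 0.046, adjusted p = 0.0201), with every NMYB library below every MYB library. Over all genes 1.14% passed, 0.626% lower, and in 9.75% every NMYB library lay below every MYB library, which 6 of the 43 members did. Side by side, the log2 fold changes of NMYB and of MYB against the shared empty vector were -0.32 ± 0.046 and -0.081 ± 0.046 for MKI67, -0.37 ± 0.055 and -0.26 ± 0.055 for TOP2A, -0.36 ± 0.064 and -0.16 ± 0.063 for ASPM, and -0.39 ± 0.051 and -0.36 ± 0.050 for BUB1 (± SE). In the direct comparison the differences of TOP2A (log2 fold change -0.11, SE 0.055, adjusted p = 0.322), ASPM (log2 fold change -0.19, SE 0.064, adjusted p = 0.131), BUB1 (log2 fold change -0.029, SE 0.051, adjusted p = 0.809) and CDC20 (log2 fold change 0.10, SE 0.054, adjusted p = 0.336) did not pass, which does not show that the 2 groups act alike. Without MYB replicate 1, MKI67 did not pass (log2 fold change -0.22, adjusted p = 0.163) and no member was called, and without NMYB replicate 2 or 3 there were 2. The log2 fold change correlated with transcript GC content at 0.46 across members and 0.37 across all genes (Pearson). For NMYB against empty vector these were 0.39 and 0.18. With the GC trend removed, that comparison gave -0.33 for MKI67, -0.32 for TOP2A, -0.30 for ASPM, -0.37 for BUB1 and 0.14 for CDC20. The part of GC content was not tested further.

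**Figure D2:**
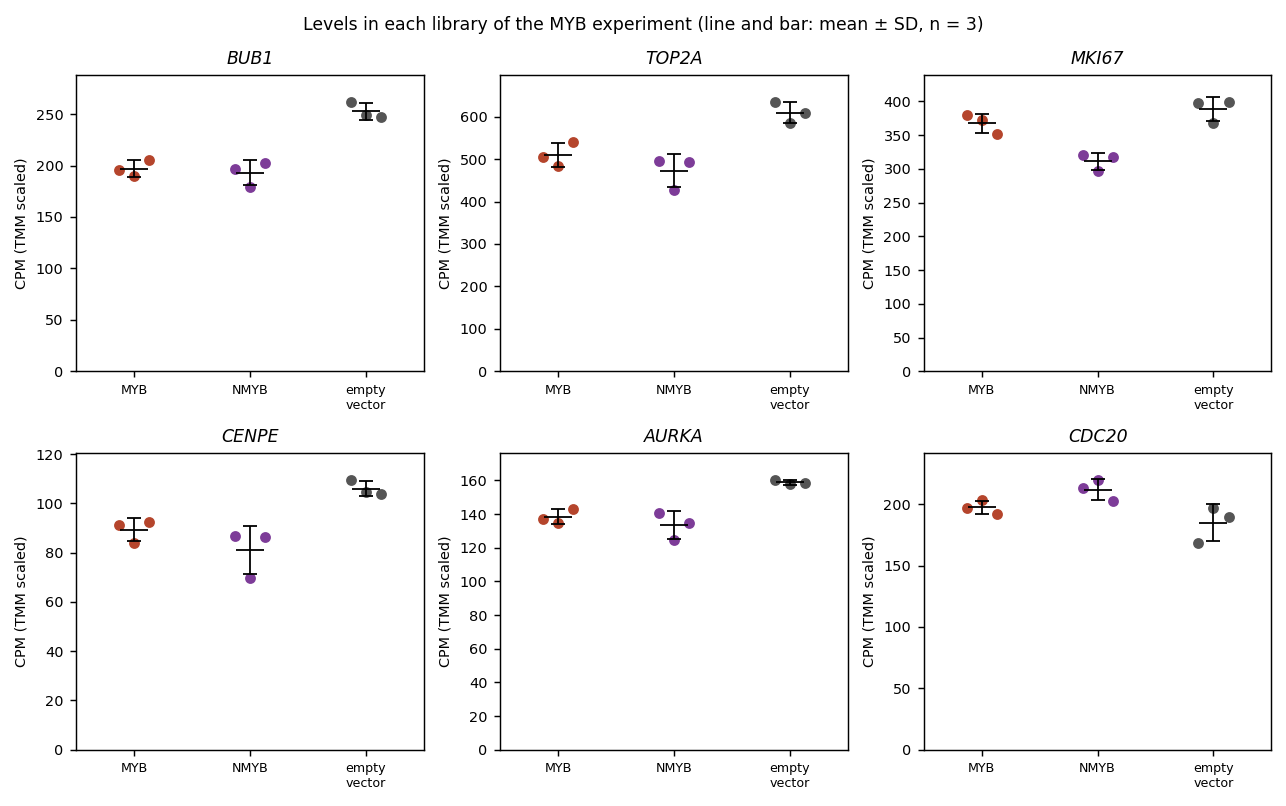
Level in CPM (y axis, from 0) of BUB1, TOP2A, MKI67, CENPE, AURKA and CDC20 in each of the 9 libraries labelled MYB, NMYB and empty vector (x axis, left to right); points are libraries, and the line and bar are the mean ± SD. BUB1, TOP2A, CENPE and AURKA lie below empty vector in both groups, MKI67 lies below it without overlap in NMYB only, and the NMYB points of CDC20 lie above those with empty vector.

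With 34kn overexpression, no member passed the test, and no gene of the 16116 tested did either (0.0% called). Values of many members nonetheless lay on one side. The median log2 fold change was 0.14 over the members, against 0.0016 over all genes, and 33 members were above 0. At an unadjusted p below 0.05 there were 19 members (44.2%), against 23.3% of all genes. In 17 members every 34kn library lay above every control library, against 13.4% of all genes, and in 4 every library lay below, against 15.6% of all genes. DESeq2 called 8 members, 6 higher and 2 lower, and 7.99% of all genes.

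All 5 kinesins, both cytokinesis genes and both mitotic chromosome genes were among the members above 0, while PLK1, AURKA and FOXM1 were below it. CDK1 was at 313, 317 and 318 CPM of summed bins in 34kn, against 267, 284 and 268 CPM in its control (log2 fold change 0.21, SE 0.056, adjusted p = 0.0782). CDC25C was at 39.1, 39.8 and 41.5 CPM, against 30.6, 36.4 and 34.4 CPM (log2 fold change 0.25, SE 0.086, adjusted p = 0.125). NDC80, the kinetochore's link to microtubules, was at 111, 108 and 115 CPM, against 83.7, 99.2 and 94.9 CPM (log2 fold change 0.27, SE 0.075, adjusted p = 0.0851). In these 3 genes all libraries of 34kn were above all of the control, and 34kn control replicate 1 was the lowest library. HMMR, a microtubule-binding protein of the spindle, was at 173, 157 and 166 CPM in 34kn, against 109, 150.4 and 134 CPM in its control (log2 fold change 0.33, SE 0.098, adjusted p = 0.0897). TOP2A was at 729, 702 and 686 CPM, against 553, 686 and 575 CPM (log2 fold change 0.22, SE 0.075, adjusted p = 0.119), with 34kn control replicate 2 close to the 34kn libraries. DLGAP5 had the smallest adjusted p of the members, 0.0760, at 99.5, 96.3 and 96.9 CPM in 34kn, against 75.6, 87.5 and 77.2 CPM in its control.

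BUB1 (log2 fold change 0.15, SE 0.071, adjusted p = 0.228), CCNB1 (log2 fold change 0.081, SE 0.056, adjusted p = 0.397) and BUB1B (log2 fold change 0.13, SE 0.071, adjusted p = 0.299) had smaller positive values. AURKA (log2 fold change -0.015, SE 0.059, adjusted p = 0.904), FOXM1 (log2 fold change -0.0091, SE 0.082, adjusted p = 0.957) and MKI67 (log2 fold change 0.0099, SE 0.069, adjusted p = 0.946) were close to 0. The members below 0 included 3 of the 4 chromosomal passenger genes, CDC20 at 131, 140.0 and 136 CPM in 34kn, against 164, 145 and 159 CPM in its control (log2 fold change -0.20, SE 0.067, adjusted p = 0.117), and PLK1 (log2 fold change -0.093, SE 0.055, adjusted p = 0.327). The groups of CDC20 lay apart, without passing the test.

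In the 34kn experiment the sign of a member's value went with the base composition of its transcript. Across the 43 members, the correlation between the GC content of the longest transcript and the log2 fold change was -0.67 (Pearson) and -0.69 (Spearman), and across 15703 genes it was -0.48 (Pearson). The points share the same libraries, so this is a description. The 14 members of lowest GC content (up to 40.8%) had a median log2 fold change of 0.22, and the 14 of highest (48.3% and above) one of -0.027. Once each library's trend with GC content was removed, the median log2 fold change of the members was 0.081, against 0.011 over all genes, and no member was called, as before. The part of base composition in the values was not tested further. Without 34kn control replicate 1, 3 members were called, all higher, with 2.71% of all genes, and without 34kn control replicate 2, 20 were called, 17 higher and 3 lower, with 18.0% of all genes. The summed level of the members was 6712, 6663 and 6709 CPM in 34kn, against 5833, 6481 and 6155 CPM in its control, so the control libraries were spread more widely than the 34kn libraries.

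With 34kp overexpression, 1 of the 43 members fell and none rose. BUB1 was at 258, 278 and 299.9 CPM in 34kp, against 364, 355 and 342 CPM in its control (log2 fold change -0.34, SE 0.074, adjusted p = 0.0385), and every 34kp library lay below every control library. Over all 16662 genes tested, 2.35% passed in either direction and 1.72% were lower. The median log2 fold change was -0.023 over the members and -0.0050 over all genes, with 25 members below 0 and 18 above. In 9 members all 34kp libraries lay below all control libraries, against 13.2% of all genes, and in 2 all lay above, against 10.3% of all genes.

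HMMR was at 111, 125 and 151 CPM in 34kp, against 187, 175 and 157 CPM in its control (log2 fold change -0.42, SE 0.11, adjusted p = 0.0794). CDC25C was at 27.2, 26.0 and 28.1 CPM, against 35.9, 33.1 and 34.5 CPM (log2 fold change -0.35, SE 0.091, adjusted p = 0.0751). CCNB1 was at 249, 255 and 278 CPM, against 221, 214 and 215 CPM (log2 fold change 0.27, SE 0.071, adjusted p = 0.0795). HMMR and CDC25C lay below and CCNB1 above in every library, without passing the test. CDK1 (log2 fold change -0.023, SE 0.089, adjusted p = 0.920), PLK1 (log2 fold change 0.077, SE 0.073, adjusted p = 0.630), AURKA (log2 fold change 0.068, SE 0.075, adjusted p = 0.687), BUB1B (log2 fold change -0.0093, SE 0.075, adjusted p = 0.965), FOXM1 (log2 fold change 0.016, SE 0.11, adjusted p = 0.957) and MKI67 (log2 fold change 0.050, SE 0.073, adjusted p = 0.765) had values near 0.

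The 34kp libraries differed among themselves, and from their control in the share of the file total set aside as of low quality, 4.46% to 4.64% in 34kp, against 7.14% to 8.35% in its control, whose part in the values was not tested. TOP2A was at 666, 748 and 906 CPM in 34kp, against 899, 804 and 776 CPM in its control (log2 fold change -0.096, SE 0.10, adjusted p = 0.681), and the third 34kp library was the highest of all 6. CENPE, at 79.1, 103 and 122 CPM in 34kp, against 117, 104 and 94.2 CPM in its control, and ASPM, at 119.9, 146 and 175 CPM, against 144, 128 and 117 CPM, had the same pattern. The summed level of the members was 6134, 6509 and 6986 CPM in 34kp, against 7020, 6748 and 6607 CPM in its control. Without 34kp replicate 3, 5 members were called, all lower, with 6.85% of all genes. Without 34kp replicate 1 there were 2, 1 higher and 1 lower, with 3.58% of all genes. Without 34kp replicate 2, or without any one control library, there was none, and BUB1 then had log2 fold changes of -0.32 to -0.37. With the GC trend removed 9 members were called, 6 higher and 3 lower, as were 2673 of the 16662 genes tested. The correlation of GC content with the log2 fold change was 0.29 across the members and 0.058 across all genes (Pearson).

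**Figure D3:**
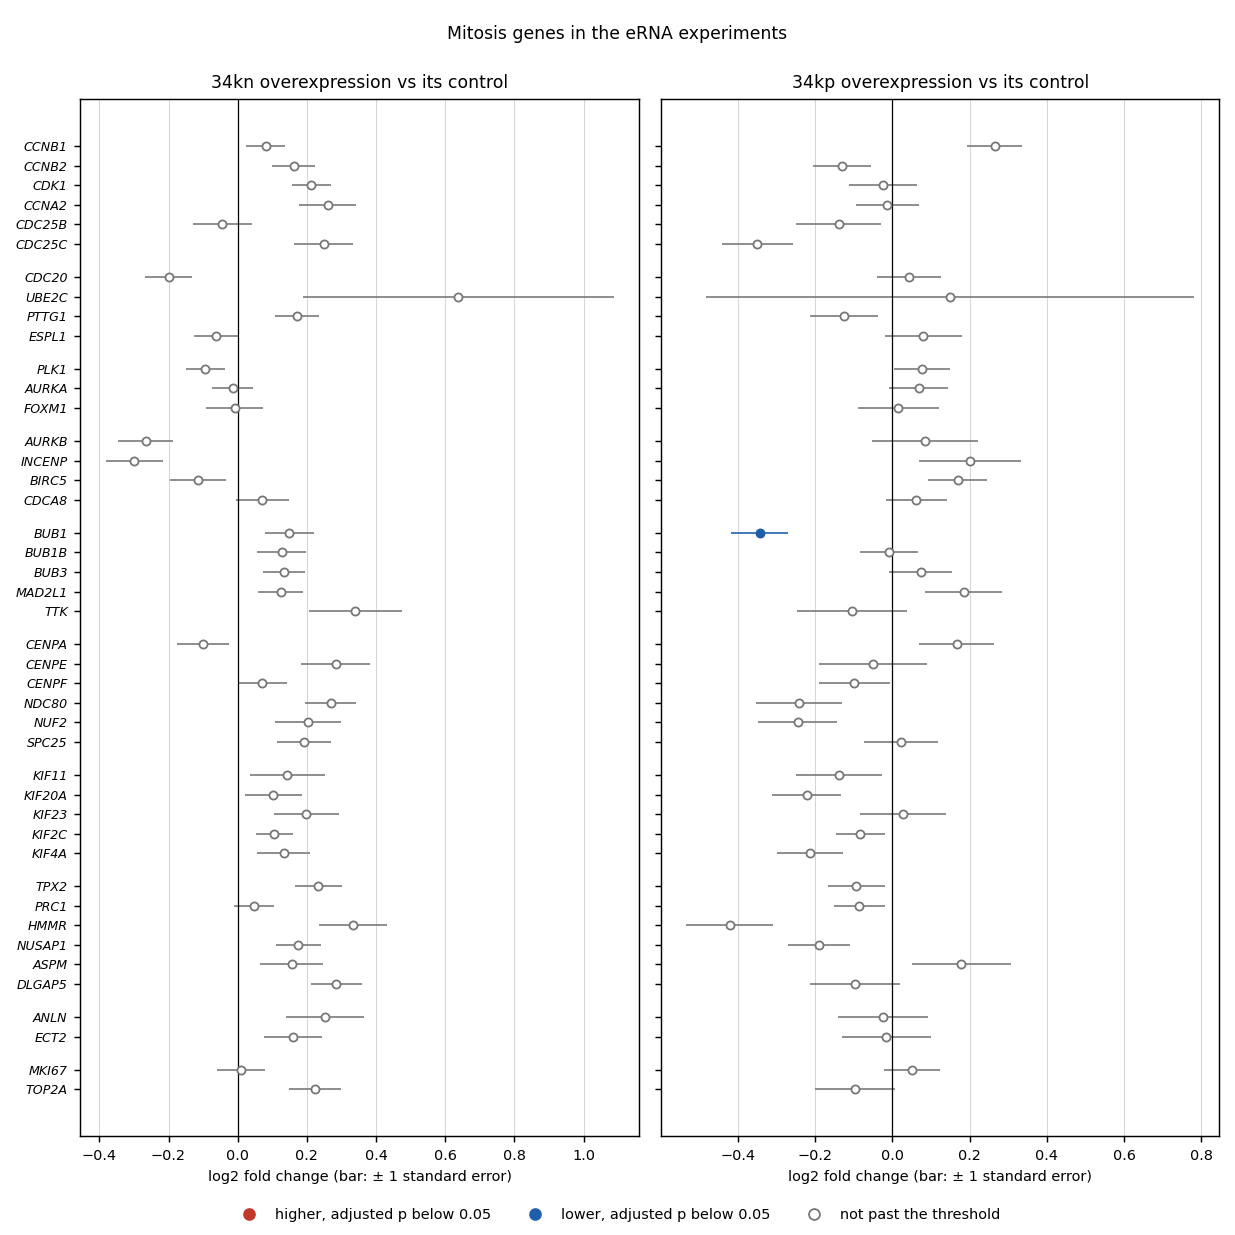
Log2 fold change (x axis, ± 1 standard error) of each of the 43 mitosis genes (y axis, grouped by role) for 34kn against its control (left) and 34kp against its control (right). No point is filled on the left, where 33 genes lie above 0, and on the right BUB1 is the one filled point, lower at an adjusted p of 0.0385.

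The effects of the 2 enhancer RNAs differed in 5 members, all with a higher effect of 34kn than of 34kp. An interaction term fitted over the 12 libraries tested the difference, and 6.36% of 17323 genes passed in either direction, 2.83% higher and 3.53% lower. The experiments have separate controls. The 5 were CDC25C, BUB1, HMMR, NDC80 and the unit that holds NUSAP1, which come from the CDK1, checkpoint, spindle and kinetochore groups. In the common scaling of the 12 libraries, CDC25C was at 40.1, 40.9 and 42.6 CPM in 34kn, against 31.3, 37.1 and 35.2 CPM in its control. It was at 26.6, 25.4 and 27.6 CPM in 34kp, against 35.0, 32.2 and 33.7 CPM in its control, and the log2 difference of the effects was 0.60 (SE 0.12, adjusted p = 0.00985). The control levels of CDC25C were close, so the groups part above and below them.

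BUB1 was at 235, 234 and 239.7 CPM in 34kn, against 189.6, 229 and 218 CPM in its control. It was at 253, 272 and 294 CPM in 34kp, against 354, 346 and 334 CPM in its control (difference of the effects 0.49 in log2, SE 0.10, adjusted p = 0.0136). The 2 controls of BUB1 themselves differed by more than either effect, with every library of the 34kp control above every library of the 34kn control. HMMR was at 177, 161 and 171 CPM in 34kn, against 111, 154 and 137 CPM in its control. It was at 109, 123 and 148 CPM in 34kp, against 182, 169.9 and 153 CPM in its control (difference 0.75, SE 0.16, adjusted p = 0.0161). In each experiment the overexpression libraries of HMMR lay apart from their controls, above them in 34kn and below them in 34kp. NDC80 was at 113, 111 and 119 CPM in 34kn, against 85.4, 101 and 97.0 CPM in its control. It was at 72.2, 82.4 and 98.8 CPM in 34kp, against 105, 96.2 and 96.7 CPM in its control (difference 0.51, SE 0.14, adjusted p = 0.0411). The 34kp libraries of NDC80 overlapped those of its control. The NUSAP1 unit was at 386, 382 and 373 CPM in 34kn, against 308, 361 and 337 CPM in its control, and at 327, 367 and 397 CPM in 34kp, against 426, 414 and 398 CPM in its control (difference 0.36, SE 0.10, adjusted p = 0.0496).

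Of the other 38 members, 13 had a difference below 0 and 25 one above. CCNB1 (log2 difference -0.18, SE 0.083, adjusted p = 0.184), CDK1 (log2 difference 0.24, SE 0.11, adjusted p = 0.180), TOP2A (log2 difference 0.32, SE 0.14, adjusted p = 0.179) and PLK1 (log2 difference -0.17, SE 0.084, adjusted p = 0.228) did not pass, nor did AURKA, BUB1B, FOXM1 and MKI67, whose log2 differences ran from -0.082 to 0.14. With the GC trend removed, 9 members were called, 4 higher and 5 lower, with 9.74% of all genes. The 4 were CDC25C, BUB1, HMMR and NDC80, with smaller log2 differences of 0.49, 0.31, 0.53 and 0.31, and the NUSAP1 unit, at 0.17, was lost (adjusted p = 0.0841). With the highest bin of each gene in place of the sum, HMMR alone of the 5 was called (0.78, adjusted p = 0.0235), while CDC25C (0.70), BUB1 (0.39), NDC80 (0.45) and NUSAP1 (0.20) had adjusted p-values of 0.0869 to 0.398. The correlation of the difference with GC content was -0.58 across the members and -0.28 across all genes (Pearson). CDC25C and BUB1 passed without any one of the 12 libraries. HMMR did not without 34kn replicate 1 (0.72) or 34kp control replicate 1 (0.69), while NDC80 and the NUSAP1 unit each passed without 34kn control replicate 2 or 34kp replicate 3 and missed the threshold without any other library, with log2 differences of 0.41 to 0.53 and 0.29 to 0.39. The number of members called was 2 or 3 without any other library, 9 without 34kn control replicate 2 and 17 without 34kp replicate 3, with 10.5% and 15.4% of all genes called in those 2 cases.

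**Figure D4:**
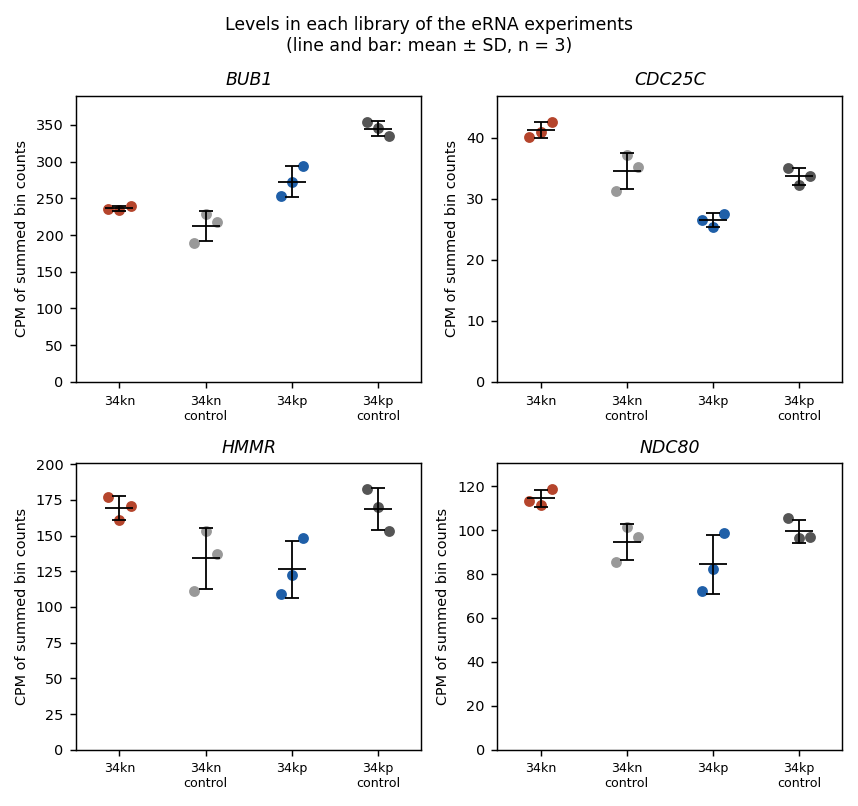
Level in CPM of summed bin counts (y axis, from 0) of BUB1, CDC25C, HMMR and NDC80 in each of the 12 libraries of the enhancer RNA experiments (x axis, each overexpression left of its own control); points are libraries, and the line and bar are the mean ± SD. For CDC25C the 34kn points lie above and the 34kp points below their controls, whereas the 34kp control of BUB1 stands higher than the other 3 groups.

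**Figure D5:**
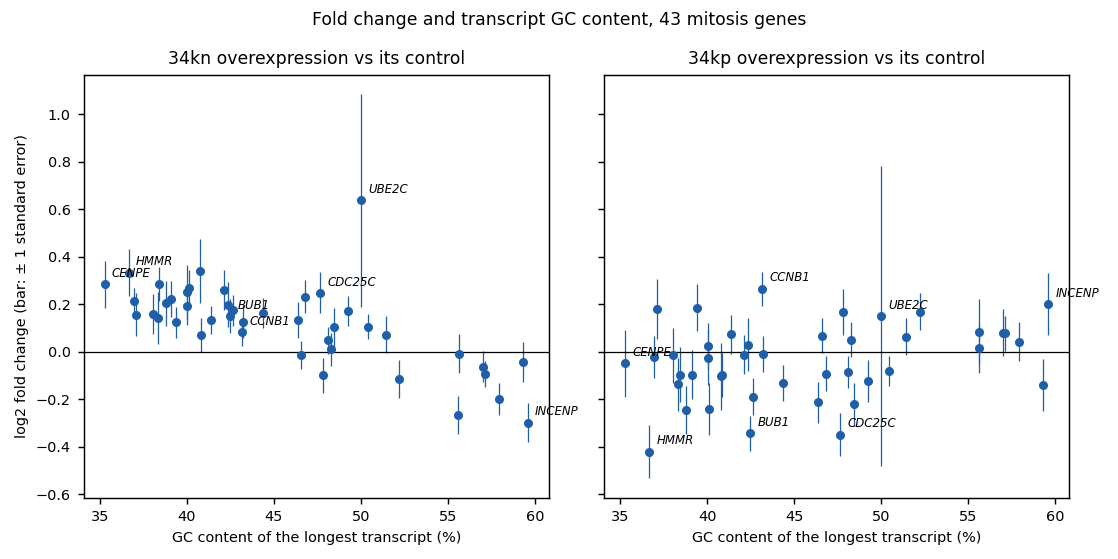
Log2 fold change (y axis, ± 1 standard error) of the 43 mitosis genes against the GC content of the longest transcript in percent (x axis) for 34kn (left) and 34kp (right), each against its control. On the left the points fall with GC content (Pearson correlation -0.67), with HMMR and CENPE high and INCENP low, and on the right they do not (0.29); UBE2C, with few counts, has the longest bar.

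Exon usage was compared in the 2 enhancer RNA experiments, since the design text names it as their aim. The test asks whether a bin moved otherwise than the rest of its gene, and 42 of the 43 members had enough bins, UBE2C being the exception. In 34kn, 9 members passed (adjusted Simes p below 0.05), against 7.24% of all 11407 genes tested: BUB3, KIF4A, CDC20, BUB1B, INCENP, SPC25, ASPM, KIF2C and PRC1. Of the 1166 bins of members tested, 14 passed, in 12 members, against 0.795% of all bins. All 14 were lower in 34kn relative to their gene, and in all 14 the highest library was 34kn control replicate 1. In 34kp no member passed, against 0.0853% of all 11721 genes tested and 0.00862% of all bins, although 12 of its bins had an unadjusted p below 0.05, and limma's diffSplice called 0 members as well.

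The bins are named by the number that the files give, and their place in the gene was not analysed here, since the annotation release is not given in the sources used here. Bin 2 of BUB3, the checkpoint partner of BUB1 and BUBR1, was at 5.75, 5.59 and 6.64 CPM in 34kn, against 16.1, 7.61 and 9.77 CPM in its control (log2 fold change relative to the gene -0.72, adjusted p = 9.16e-06). Bin 1 of CDC20 was at 2.15, 1.55 and 1.75 CPM, against 6.70, 2.26 and 4.15 CPM (log2 fold change relative to the gene -0.74, adjusted p = 7.60e-04). Bin 4 of the BUB1B unit was at 2.21, 1.60 and 2.12 CPM, against 5.88, 2.34 and 3.40 CPM (log2 fold change relative to the gene -0.76, adjusted p = 0.00144). In these 3 bins the control libraries differed among themselves by more than the lowest of them differed from 34kn. Bin 20 of INCENP, the scaffold of the chromosomal passenger complex, was at 1.19, 0.867 and 1.65 CPM in 34kn, against 4.41, 2.62 and 3.12 CPM in its control (log2 fold change relative to the gene -0.81, adjusted p = 0.00458), and bin 21 of the same gene passed as well (adjusted p = 0.0238). Bin 2 of KIF4A, a kinesin that binds chromosomes, was at 0.624, 0.184 and 0.392 CPM in 34kn, against 1.81, 0.624 and 1.32 CPM in its control (log2 fold change relative to the gene -1.24, adjusted p = 3.69e-04), a level of few counts. Bin 34 of KIF2C was at 5.47, 5.17 and 6.54 CPM, against 11.4, 5.85 and 8.62 CPM (log2 fold change relative to the gene -0.48, adjusted p = 0.00923). These values keep the order in which control replicate 1 is highest.

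The other called bins lay in the PRC1 unit (bin 95), ASPM (bin 42), SPC25 (bin 10), the NUSAP1 unit (bin 10) and PLK1 (bin 2), with adjusted p-values of 0.00853 to 0.0383 and log2 fold changes of -1.29 to -0.56 relative to the gene. A further 2, in TPX2 (bin 3) and BUB3 (bin 4), lie outside the 12 of smallest adjusted p and are named to complete the count. Of all called bins the highest mean level was 19.1 CPM. Without 34kn control replicate 1, BUB3 alone was called (adjusted p = 0.00246). There were 21 members called without control replicate 2, with 22.7% of all genes, and 6 without control replicate 3, with 4.83%. Without 34kn replicate 1, 2 or 3 there were 3, 1 and 4, with BUB3 among them each time.

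Other genes of the same pathways, none of them a member, were counted in 6 lists. In the regulators of these promoters (15 genes: B-MYB, the MuvB subunits, the E2F and RB-family partners and NF-Y), 2 fell in MYB, RBL2 (-0.33 ± 0.064, adjusted p = 0.00110) and E2F5 (-0.34 ± 0.12, adjusted p = 0.0447), and 1 in NMYB, RBL2 (-0.34 ± 0.065, adjusted p = 8.15e-04). RBL2 is the pocket protein of the repressive DREAM complex. Over all genes 12.7% were lower in MYB and 12.4% in NMYB, so the counts of falls among the 15 lie near or below those shares. Among 17 other genes of the anaphase promoting complex, none passed in MYB, and in NMYB 4 rose, with UBE2S, which extends the ubiquitin chains, the furthest (0.52 ± 0.090, adjusted p = 0.00104), and 1 fell, CDC27 (-0.15 ± 0.054, adjusted p = 0.0496). The median log2 fold change of that list in NMYB was 0.084, against 0.0076 over all genes. Of all genes, 12.6% were higher and 12.4% lower in NMYB, and 22.3% passed in either direction in MYB.

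Condensin and shugoshin, which compact chromosomes and guard their cohesion, had 7 of 10 genes lower in NMYB and 2 of 10 lower in MYB, with none higher, against 12.4% and 12.7% of all genes lower. Their median log2 fold change was -0.15 in NMYB and -0.094 in MYB. NCAPD2, a condensin subunit, fell in NMYB (-0.25 ± 0.041, adjusted p = 1.92e-04) and in MYB (-0.22 ± 0.040, adjusted p = 5.53e-04). Of 26 other kinesins, spindle and cytokinesis genes, 8 fell in NMYB and 4 in MYB, and none rose. KIF14, a kinesin of cytokinesis, fell in NMYB (-0.30 ± 0.061, adjusted p = 0.00124), and KIFC1, a minus-end directed kinesin, in NMYB (-0.20 ± 0.052, adjusted p = 0.00990) and in MYB (-0.26 ± 0.052, adjusted p = 0.00137). When NMYB was tested directly against MYB, none of the 10 condensin and shugoshin genes passed. Of the 26 others KIF14 alone did (-0.26 ± 0.061, adjusted p = 0.0444). Over the 6 lists, 2 of the 129 genes were lower in that test and none higher, against 0.626% and 0.518% of all genes.

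The 31 other kinetochore and checkpoint genes went in both directions: 8 rose and 5 fell in NMYB, and 5 rose and 3 fell in MYB, against 12.6% of all genes higher and 12.4% lower in NMYB, and 9.62% higher and 12.7% lower in MYB. HJURP, the chaperone that loads CENP-A, fell in NMYB (-0.37 ± 0.052, adjusted p = 3.49e-05) and in MYB (-0.31 ± 0.051, adjusted p = 1.89e-04), while CENPH, a subunit of the inner kinetochore, rose in NMYB (0.47 ± 0.059, adjusted p = 1.42e-05) and in MYB (0.28 ± 0.059, adjusted p = 0.00196). Of 30 genes of DNA replication, 1 rose and 4 fell in NMYB and 1 rose and 3 fell in MYB, and the falls are near the shares over all genes. In 34kn and in 34kp no gene of the 6 lists passed in edgeR, with 44 and 16 of the 129 genes at an unadjusted p below 0.05, against 23.3% and 17.9% of all genes. In the interaction, 2 of the 15 regulators were higher and 1 lower, 2 of the 17 anaphase promoting complex genes and 2 of the 31 kinetochore genes were higher, and in the other lists none passed. Over the 6 lists, 6 of the 129 genes were higher and 1 lower, against 2.83% and 3.53% of all genes. In either direction 6.36% of all genes passed, so the lists hold no excess of calls when both directions are counted. By direction, the share of the 129 genes that was higher lay above that of all genes, and the share that was lower lay below it. These shares rest on few calls, and the lean to the higher side was not tested.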

How the data were processed

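RNA of 21 K562 libraries was grouped by the sample labels into 7 groups of 3. For 12 libraries the authors deposited raw counts per exon bin, and for the MYB experiment a table of raw counts per gene. The submitters' processing notes name Trimmomatic 0.93 and GRCh38 for all libraries, STAR 2.7.10a for those with bin counts, and HISAT2 2.2.1 and featureCounts 2.0.1 for those in the gene table. The bin counter, annotation release, strand setting and treatment of multiple alignments are not given in the sources used here. Without a stated strand setting, overlapping and antisense genes cannot be told apart, nor can near-identical copies.

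Bin counts were summed per gene. Summary rows of the bin files that name no gene were left out; they held 29.5% to 32.8% of a file's total as "empty", 4.46% to 10.5% as low quality and 0.0155% to 0.0225% as ambiguous. The gene test was that of edgeR 4.0.16 under R 4.3.3 (TMM, filterByExpr with a minimum count of 10, robust quasi-likelihood F test, two-sided, Benjamini-Hochberg adjustment over all genes tested, threshold 0.05). One fit held the 9 libraries of the MYB experiment, with each enhancer RNA experiment on its own 6 libraries, and the interaction on all 12. Exon usage was tested with edgeR's diffSpliceDGE and Simes' method, and DEXSeq, which the design text names, was not used. Alternatives were DESeq2 1.42.0, its size factors, no filter, a replicate block, removal of GC trends, the highest bin per gene, limma 3.58.1 (voom, diffSplice), a minimum bin count of 30 and leaving out each library. Each kind of test was tested on simulated data. Coordinates, exon lengths and GC content come from GENCODE 29 (GRCh38) and promoters from RefSeq. Of 61541 gene identifiers, 61369 carry a symbol.

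The members and all lists were chosen with earlier results of these data known. Called members are named (up to 12 of smallest adjusted p with all library values), and others only if called elsewhere or among CCNB1, CDK1, PLK1, AURKA, BUB1B, FOXM1, MKI67 and TOP2A. For levels, the 5 highest and 5 lowest are named, and for bins up to 12 called. Replicate pairs differed by more than counting noise in every group, with chi-square values of 1.59 to 51.7 for each degree of freedom. Since no label calls the replicates separate cultures, the p-values measure only how far these samples spread, and that spread may be technical. One marker of another cell type, and the sum of its list, are not reported here.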

Additional observations from a re-analysis of the deposited data

Results flagged for a closer look

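For 5 members the effect of 34kn differed from that of 34kp in a test of the difference itself, and for 1 member NMYB differed from MYB. The log2 difference between the effects was 0.60 for CDC25C, 0.49 for BUB1, 0.75 for HMMR, 0.51 for NDC80 and 0.36 for the unit that holds NUSAP1, with adjusted p-values of 0.00985, 0.0136, 0.0161, 0.0411 and 0.0496 (edgeR, 3 libraries in each of 4 groups). In CDC25C every 34kn library lay above, and every 34kp library below, its own control, and the same held for BUB1 and HMMR and for the NUSAP1 unit. In NDC80 the 34kp libraries overlapped their control. MKI67 differed between NMYB and MYB by -0.24 in log2 (adjusted p = 0.0201), lower in 3 of 3 NMYB libraries, and the call was lost without MYB replicate 1.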

How the results depend on the processing

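The 39 named calls of members were recomputed 477 times under the alternatives, with 378 on the same side of the threshold and 99 no longer past it. No call of a gene's level changed direction. The 9 exon usage calls among the 39 carry no direction, so only the threshold was checked for them. The members called against empty vector numbered 17 for MYB with the GC trend removed, alone or with the replicate block, against 9 as reported. For NMYB against MYB there were 2 with DESeq2's size factors, 2 with DESeq2, 4 without a filter and 3 with the GC trend removed, against 1. For 34kn there were 8 with DESeq2, 12 without a filter and 1 with the highest bin of each gene, against 0. In 34kp there were 4, 2 and 0 under the same settings and 9 with the GC trend removed, against 1. The difference between the enhancer RNA effects had 11, 11 and 3 under those settings (1 of the 3 among the 5 reported) and 9 with the GC trend removed, against 5. The cause was not tested. Leaving out 1 library at a time gave 4 to 9 members for MYB, 10 to 14 for NMYB, 0 to 2 for NMYB against MYB, 0 to 20 for 34kn, 0 to 5 for 34kp, 2 to 17 for the difference between the effects, 1 to 21 for exon usage in 34kn and 0 for exon usage in 34kp; a group left with 1 pair keeps the spread pooled over genes.

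The numbers were not treated as pairing the samples, since not every same-numbered pair correlated above 0.1: deviations of same-numbered samples from their group means correlated at -0.023 to 0.099 in the MYB experiment, -0.047 to 0.0046 in 34kn, -0.19 to 0.0080 in 34kp and -0.17 to 0.23 over both. A sample's best match had its own number in 22 of 36, 0 of 12, 2 of 12 and 24 of 72 cases (12, 4, 4 and 24 if numbers carried nothing), a hint of pairing in the MYB experiment from the data and not the design. Each match enters all of these counts 2 times, so the hint rests on fewer matches than they show. With the replicate block there were 5 members called for NMYB against MYB (7.48% of all genes), 0 for 34kp (BUB1 -0.35) and 0 for the difference between the effects, where the log2 differences of the 5 members were 0.37 to 0.77 with adjusted p of 0.0739 to 0.157, against 0.36 to 0.75 as reported, and with the block and the GC trend removed 5 for NMYB against MYB and 5 for 34kp. For MYB and NMYB against empty vector the block gave 13 and 17, and for 34kn 0.

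UBE2C, PRC1 and NUSAP1 have few counts per library in the gene table (at most 78), and depth limits what can be said of them.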
